A study of Homo sapiens with 22 samples.

Results

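Target and feedback genes of TGF-β and bone morphogenetic protein (BMP) signalling were followed across the series by their Ensembl identifiers, namely ID1, ID2, ID3, SMAD6, SMAD7, BMP4, BAMBI, SKIL and TGFBI. They are 9 of the 37908 genes in the count table, they were named with earlier results of these data known, and all 9 passed the filter on low counts in every comparison. The cells were H1299, a line from a human lung tumour of the non-small cell type, in which doxycycline (DOX) switches on an shRNA that targets BRCA2. Cultures without DOX were BRCA2-proficient, and those given 2 µg/mL DOX for 3 days were BRCA2-deficient. LY2090314 (GSK3i) is an inhibitor of glycogen synthase kinase 3 that stabilises β-catenin. Within each state, cells were transfected with a control siRNA (AllStars) or with siβ-catenin. They were either labelled untreated, for which the study's figure legends give DMSO, or given 250 nM GSK3i for 24 h. This gave 8 groups and 22 RNA-seq libraries, with 3 libraries in each group except the BRCA2-proficient untreated and BRCA2-proficient siβ-catenin groups, which had 2 each, numbered 2 and 3 in the labels. All 22 cultures carried the shRNA construct, and no DOX-treated culture without it was analysed here, so the effects of DOX and of BRCA2 depletion cannot be told apart. All values come from 1 cell line, and in bulk RNA fewer cells with a transcript and less of it per cell cannot be told apart.

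TGF-β and BMP ligands bind paired serine/threonine kinase receptors, which phosphorylate receptor-regulated SMAD proteins: SMAD2 and SMAD3 for TGF-β, and SMAD1, SMAD5 and SMAD9 for BMP. These join SMAD4, enter the nucleus and activate targets that include brakes on the pathway itself. ID1, ID2 and ID3 are direct BMP targets that bind basic helix-loop-helix transcription factors and keep them off DNA. SMAD6 and SMAD7 are inhibitory SMADs, BAMBI is a decoy receptor without a kinase, SKIL is a SMAD co-repressor, BMP4 is a ligand, and TGFBI is a secreted matrix protein induced by TGF-β.

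The knockdowns and the cell line were read from the same table. BRCA2 ran from 513.6 to 1111 normalised counts (counts divided by each library's size factor) in the 10 BRCA2-proficient libraries and from 71.4 to 225.3 in the 12 BRCA2-deficient ones. CTNNB1, which encodes β-catenin, ran from 5206 to 8669 with control siRNA and from 976.8 to 2217 with siβ-catenin. Libraries held 18938266 to 29280122 counts. The epithelial and mesenchymal markers of the line (KRT8, KRT18, KRT7, VIM and CDH2) were detected in all 22 libraries. Of the markers of other cell types that were found in the table, PTPRC was at 0 in 18 libraries, SFTPC in 17 and CDH5 in 14. COL1A2 stayed at or under 3.14 normalised counts, CD68 ran from 1.93 to 13.8 and DCN from 17.0 to 44.3.

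Of the 22 libraries, 2 went against their GSK3i labels, and the comparisons that rest on them are given with and without them. Levels averaged over all 22 libraries include them. A GSK3i response score was built from 1507 genes that rose and 2022 that fell with GSK3i in BRCA2-deficient siβ-catenin cells, without the 9 targets. It was scaled so that the 2 groups it was built from average 0 and 1. The 3 libraries of BRCA2-proficient GSK3i cells scored 1.23 to 1.25, and the 2 untreated ones scored 0.265 and 0.28. The library labelled BRCA2-proficient siβ-catenin replicate 2, which should have had no GSK3i, scored 1.11, and its partner, replicate 3, scored 0.541. The library labelled BRCA2-proficient GSK3i with siβ-catenin replicate 2 scored 0.236, against 1.14 and 1.13 for replicates 1 and 3. AXIN2, a direct target of β-catenin, was at 67.2 normalised counts in the first of these libraries and at 65.0 in its partner. In the second it was at 73.1, below the 145 and 117 of replicates 1 and 3. No label was changed.

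**Figure D1:**
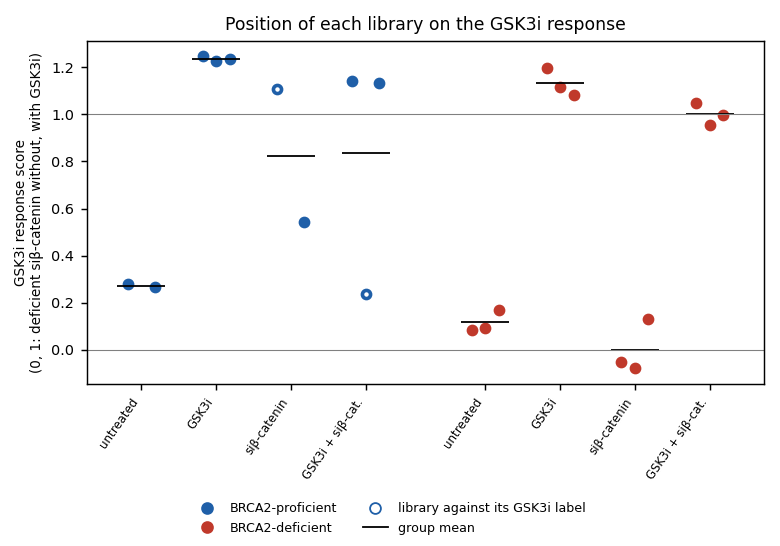
GSK3i response score of each library (vertical axis, scaled so that BRCA2-deficient siβ-catenin cells average 0 without and 1 with GSK3i) by group, with bars at group means. The 2 open points are the libraries that went against their GSK3i labels, at 1.11 in a group without GSK3i and at 0.236 in a group with it.

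Per kilobase of exon, averaged over the 22 libraries, ID1 was the most abundant of the 9 at 2598 normalised counts, followed by ID3 at 1821 and TGFBI at 598. ID2 stood at 163, SMAD7 at 131 and SKIL at 127. BMP4 at 46.3, BAMBI at 38.1 and SMAD6 at 10.1 were the least abundant. All neighbours in this order overlapped in their ranges over libraries, except SKIL (lowest 90.17 per kilobase) and BMP4 (highest 89.97).

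**Figure D2:**
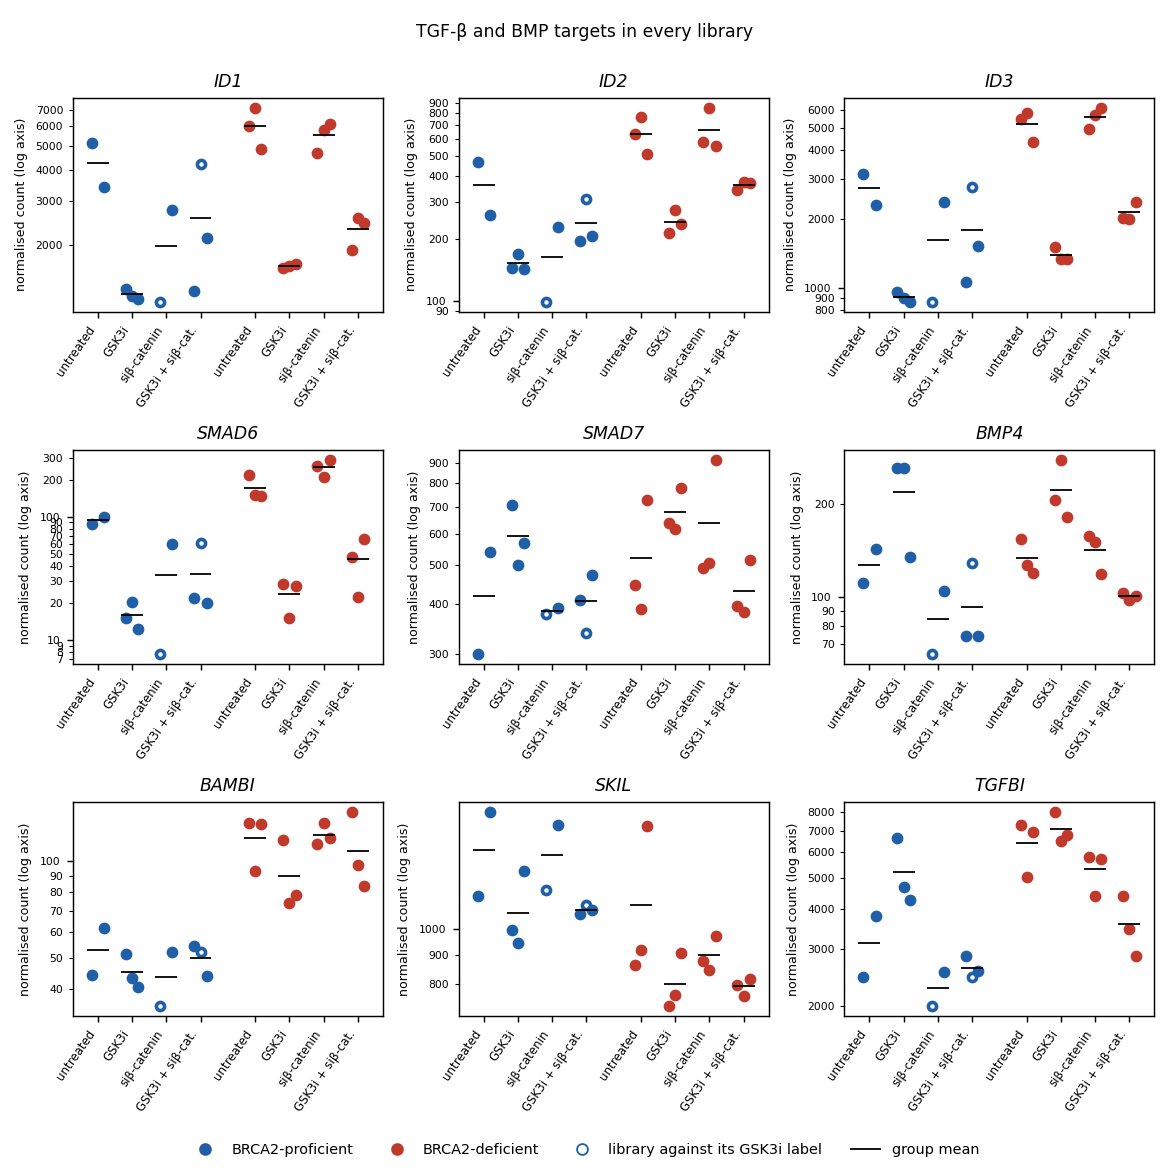
Normalised counts of the 9 genes in all 22 libraries (log axis, one panel per gene), by group, with bars at group means. ID1, ID2, ID3 and SMAD6 sit lower in the GSK3i groups with control siRNA than in the untreated groups, while BAMBI sits higher in all 12 BRCA2-deficient libraries than in all 10 BRCA2-proficient ones.

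The first question was how the 9 genes responded to GSK3i. ID1, ID2, ID3 and SMAD6 fell in both BRCA2 states, to between 13.7% and 41.6% of the untreated level, and no other of the 9 was called lower in either comparison. A gene was called when its adjusted p was under 0.05 and its log2 fold change exceeded 0.5 in size. By this rule 6 of the 9 genes were called in BRCA2-proficient cells (2 higher, 4 lower) and 5 in BRCA2-deficient cells (1 higher, 4 lower). Across all genes tested, 26.1% and 25.4% were called, and 14.2% and 13.8% were called lower. The median log2 fold change of the 9 genes was -0.38 without and -0.46 with BRCA2 depletion, beside -0.002 and 0.025 over all genes.

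ID1 (ENSG00000125968; GRCh37 chromosome 20, 30193086 to 30194318, plus strand) measured 5131 and 3430 normalised counts in the 2 untreated BRCA2-proficient libraries and 1335, 1250 and 1213 with GSK3i. In BRCA2-deficient cells it measured 6019, 7143 and 4884 without and 1614, 1640 and 1671 with GSK3i. No treated library reached the lowest untreated one in either state. The log2 fold change was -1.77 ± 0.17 (SE; n = 3 and 2; DESeq2 adjusted p = 6.75e-23) in the BRCA2-proficient state, against -1.87 ± 0.18 (n = 3 and 3; DESeq2 adjusted p = 5.87e-23) in the BRCA2-deficient state. It was called under all alternatives run in both states.

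ID3 (ENSG00000117318; GRCh37 chromosome 1, 23884417 to 23885992, minus strand) followed the same course. Its counts were 3167 and 2305 in untreated and 956.2, 903.4 and 867.1 in GSK3i-treated BRCA2-proficient libraries, and 5474, 5852 and 4345 against 1504, 1337 and 1337 in BRCA2-deficient ones. The groups did not overlap. ID3 fell by 1.60 ± 0.16 on the log2 scale in BRCA2-proficient cells (DESeq2 adjusted p = 4.42e-21), and it fell by 1.91 ± 0.17 after BRCA2 depletion (DESeq2 adjusted p = 3.83e-26), again under all alternatives.

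ID2 (ENSG00000115738; GRCh37 chromosome 2, 8818975 to 8824591, plus strand) lies at lower counts and overlaps an antisense gene, ID2-AS1. The strand setting of the counting is not given in the sources used here, so reads of this pair may not be separated. ID2 measured 465.5 and 260.8 in untreated and 144.4, 169.5 and 143.2 in treated BRCA2-proficient libraries, and 636.7, 769.0 and 509.6 against 213.1, 274.1 and 234.2 in BRCA2-deficient ones. The groups did not overlap, although the untreated BRCA2-proficient libraries lay far apart. Its log2 fold change was -1.26 ± 0.26 (DESeq2 adjusted p = 8.31e-06) and -1.41 ± 0.22 (DESeq2 adjusted p = 3.58e-09). Without untreated replicate 2 the BRCA2-proficient value was -0.79 (adjusted p = 0.062) and was not called.

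SMAD6 (ENSG00000137834; GRCh37 chromosome 15, 66994574 to 67075187, plus strand), the inhibitory SMAD that acts mainly on the BMP branch, had the lowest level per kilobase and the steepest fall of the 9. It measured 88.2 and 99.9 in untreated and 15.1, 20.5 and 12.4 in treated BRCA2-proficient libraries. In BRCA2-deficient cells it measured 217.8, 150.6 and 148.4 without and 28.6, 15.0 and 27.7 with GSK3i. SMAD6 fell by 2.57 ± 0.42 on the log2 scale (DESeq2 adjusted p = 1.95e-08) and by 2.87 ± 0.34 (DESeq2 adjusted p = 3.21e-15), and was called under all alternatives in both states. It shares its strand with an overlapping gene, ENSG00000274995, so its reads may be shared.

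The promoters of these 4 genes, which moved together, and of BAMBI, which was not called for GSK3i, are printed from RefSeq (GRCh38.p14, a later build than the GRCh37 of the counts), each 300 bases around an annotated start and written 5′ to 3′ on the gene's strand. Capitals mark matches, on either strand, to GTCTAGAC, a palindrome bound by SMAD complexes, GGCGCC, a GC-rich SMAD element, or ATCAAAG, a TCF/LEF core. The first 2 read the same on both strands and none of the 3 contains another. Of 35116 promoters of this length, 0.2% held the first, 19.2% the second and 2.6% the third. All 9 genes had a promoter in the table.
ID1, chr20:31605039-31605338, plus strand: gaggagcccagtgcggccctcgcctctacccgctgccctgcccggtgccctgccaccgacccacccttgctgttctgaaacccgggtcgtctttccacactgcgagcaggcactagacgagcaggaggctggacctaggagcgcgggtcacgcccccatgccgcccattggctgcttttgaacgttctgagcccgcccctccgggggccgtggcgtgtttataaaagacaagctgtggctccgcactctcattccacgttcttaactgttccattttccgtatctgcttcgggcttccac
ID2, chr2:8681806-8682105, plus strand: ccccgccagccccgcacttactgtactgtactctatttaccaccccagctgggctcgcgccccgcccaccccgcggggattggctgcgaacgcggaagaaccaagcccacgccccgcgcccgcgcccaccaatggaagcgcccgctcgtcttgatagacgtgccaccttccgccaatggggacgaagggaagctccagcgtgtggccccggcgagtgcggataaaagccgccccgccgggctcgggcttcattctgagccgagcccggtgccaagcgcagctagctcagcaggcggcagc
ID3, chr1:23559452-23559751, minus strand: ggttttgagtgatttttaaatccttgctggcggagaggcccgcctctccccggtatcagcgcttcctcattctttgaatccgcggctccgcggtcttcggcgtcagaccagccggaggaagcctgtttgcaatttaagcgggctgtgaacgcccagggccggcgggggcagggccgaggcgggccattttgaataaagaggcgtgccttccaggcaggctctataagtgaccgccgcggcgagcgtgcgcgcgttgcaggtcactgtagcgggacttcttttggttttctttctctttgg
SMAD6, chr15:66701986-66702285, plus strand: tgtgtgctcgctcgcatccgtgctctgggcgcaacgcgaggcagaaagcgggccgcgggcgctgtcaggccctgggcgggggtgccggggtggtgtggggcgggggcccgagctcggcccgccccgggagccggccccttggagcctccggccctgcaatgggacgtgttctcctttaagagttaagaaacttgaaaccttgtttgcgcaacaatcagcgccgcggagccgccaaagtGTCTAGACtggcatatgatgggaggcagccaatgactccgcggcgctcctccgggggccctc
BAMBI, chr10:28677271-28677570, plus strand: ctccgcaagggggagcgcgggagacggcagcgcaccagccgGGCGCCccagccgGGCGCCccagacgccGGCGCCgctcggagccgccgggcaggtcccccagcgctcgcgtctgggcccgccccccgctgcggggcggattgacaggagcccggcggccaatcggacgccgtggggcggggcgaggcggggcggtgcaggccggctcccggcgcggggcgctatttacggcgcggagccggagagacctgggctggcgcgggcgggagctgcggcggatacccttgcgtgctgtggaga
SMAD6 held the palindrome once, starting at position -12 from the annotated start. BAMBI held the GC-rich element 3 times, and the windows of ID1, ID2 and ID3 held none of the 3 motifs. Of the genes not printed, SKIL and TGFBI each held 1 GC-rich element and BMP4 held 2 in 1 of its windows. The windows of SMAD7 held none of the 3 motifs. A match is a run of letters, not a bound site.

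BMP4, the ligand, moved the other way. It measured 110.3 and 142.8 normalised counts in untreated and 262.1, 261.7 and 134.2 in GSK3i-treated BRCA2-proficient libraries, so that treated replicate 3 lay within the untreated range. In BRCA2-deficient cells the values were 153.5, 126.7 and 119.7 without and 206.2, 278.5 and 181.5 with GSK3i, and the groups did not overlap. BMP4 (ENSG00000125378; GRCh37 chromosome 14, 54416454 to 54425479, minus strand) rose by 0.78 ± 0.30 (DESeq2 adjusted p = 0.0285) and by 0.74 ± 0.25 (DESeq2 adjusted p = 0.014) on the log2 scale. Neither call was firm. The first was lost by edgeR (adjusted p = 0.0626) and without untreated replicate 2 (0.60, adjusted p = 0.302), untreated replicate 3 (0.98, adjusted p = 0.0755), GSK3i replicate 1 (0.63, adjusted p = 0.152) or GSK3i replicate 2 (0.63, adjusted p = 0.196). The second was lost without GSK3i replicate 2 (0.54, adjusted p = 0.169), untreated replicate 2 (0.70, adjusted p = 0.101) or untreated replicate 3 (0.66, adjusted p = 0.0792). Over all 11 alternatives for BRCA2-proficient cells its adjusted p ran from 0.00041 to 1.0, and over the 12 for BRCA2-deficient cells from 0.00318 to 1.0. BMP4 overlaps ENSG00000287156 on the opposite strand, with the same reservation as for ID2.

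TGFBI (ENSG00000120708; GRCh37 chromosome 5, 135364677 to 135399507, plus strand) passed the call rule with GSK3i in BRCA2-proficient cells and not in BRCA2-deficient cells. Its counts were 2459 and 3814 against 6630, 4699 and 4253 there (0.71 ± 0.21, DESeq2 adjusted p = 0.00291), and 7293, 5017 and 6936 against 8011, 6490 and 6797 in BRCA2-deficient cells, where the groups overlapped (0.14 ± 0.20, DESeq2 adjusted p = 0.637). The difference between the states was itself -0.58 ± 0.33 (DESeq2 adjusted p = 1.0) and did not pass the threshold. The BRCA2-proficient call was lost without untreated replicate 2 (0.43, adjusted p = 0.219), GSK3i replicate 1 (0.50, adjusted p = 0.022) or GSK3i replicate 3 (0.84, adjusted p = 0.0841).

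SMAD7, BAMBI and SKIL were not called for GSK3i in either state. SMAD7 (ENSG00000101665; GRCh37 chromosome 18, 46446223 to 46477335, minus strand), the inhibitory SMAD of both branches, gave 0.48 ± 0.23 and 0.38 ± 0.26. Without untreated replicate 3 it was called in BRCA2-deficient cells (0.69, adjusted p = 0.00778). In BRCA2-proficient cells leaving out untreated replicate 3 left a lone untreated library, and SMAD7 then stood at 0.96. SKIL (ENSG00000136603; GRCh37 chromosome 3, 170075130 to 170114623, plus strand) gave -0.38 ± 0.18 and -0.46 ± 0.25, and was called in BRCA2-proficient cells without GSK3i replicate 3 (-0.51, adjusted p = 0.0113). Without untreated replicate 2, which left a lone untreated library, SKIL stood at -0.61 there. BAMBI (ENSG00000095739; GRCh37 chromosome 10, 28966439 to 28971861, plus strand) gave -0.26 ± 0.39 and -0.41 ± 0.29.

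Whether the GSK3i response differed with BRCA2 was tested by the interaction of the 2 factors under control siRNA. None of the 9 genes was called by DESeq2 and none by edgeR, and 0 of 9 had an unadjusted p under 0.05 with either tool. Among all genes, 0.0345% were called. The interaction terms of the falling genes were -0.12 ± 0.27 for ID1, -0.16 ± 0.36 for ID2, -0.32 ± 0.24 for ID3 and -0.31 ± 0.48 for SMAD6.

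**Figure D3:**
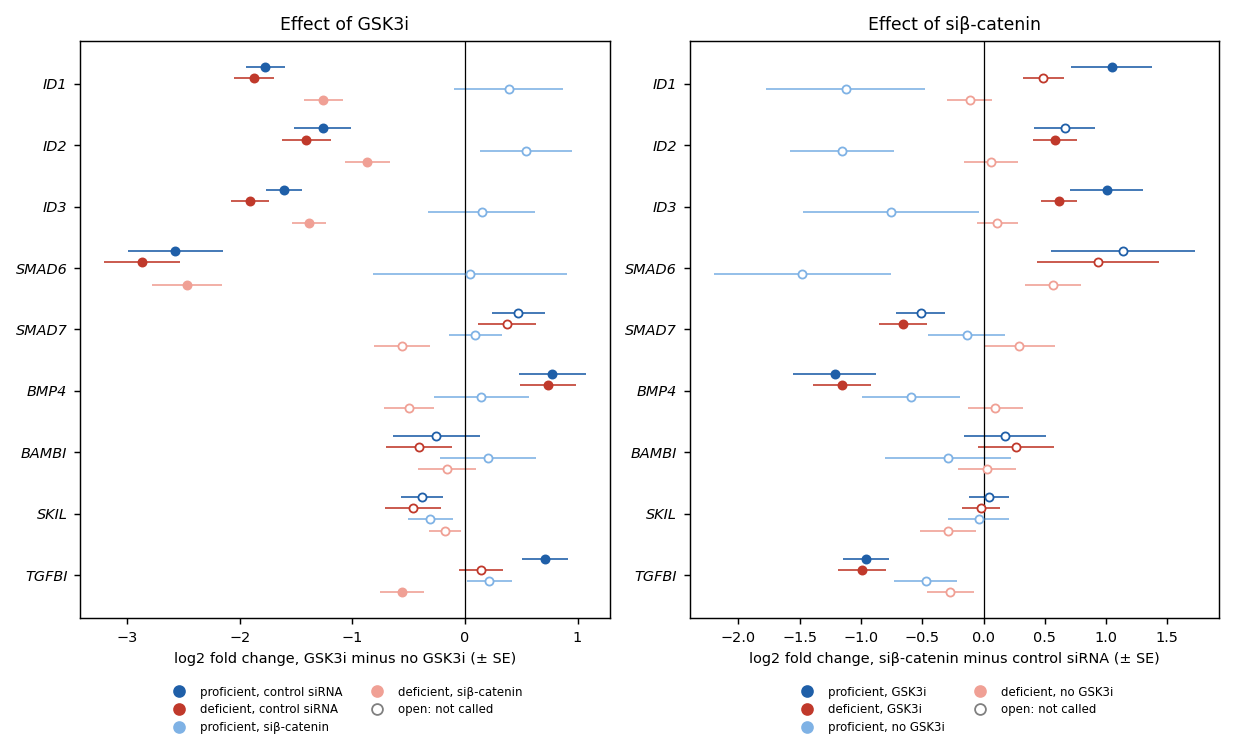
Log2 fold changes ± SE of the 9 genes for GSK3i (left, in cells with control siRNA or siβ-catenin) and for siβ-catenin (right, with or without GSK3i). Filled points passed the call rule: ID1, ID2, ID3 and SMAD6 are filled on the left in 3 of the 4 comparisons, and TGFBI and BMP4 are filled below 0 on the right under GSK3i.

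The next question was what β-catenin depletion did to cells under GSK3i. BMP4 and TGFBI fell and ID3 rose in both BRCA2 states by DESeq2. Of these, edgeR also called TGFBI in both states and BMP4 in BRCA2-deficient cells, but neither BMP4 in BRCA2-proficient cells (adjusted p = 0.113) nor ID3 in either (adjusted p = 0.141 and 0.0581). By the call rule 4 of the 9 genes changed in BRCA2-proficient cells (2 higher, 2 lower) and 5 in BRCA2-deficient cells (2 higher, 3 lower), beside 5.1% and 5.52% of all genes tested. Without the doubted library the BRCA2-proficient count was 3 of 9 (1 higher, 2 lower), beside 4.76% of all genes. These comparisons share the GSK3i libraries with those of GSK3i against untreated cells, so opposite signs in the 2 are not independent of each other.

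TGFBI measured 6630, 4699 and 4253 normalised counts in BRCA2-proficient GSK3i cells with control siRNA and 2853, 2456 and 2574 with siβ-catenin. In BRCA2-deficient cells it measured 8011, 6490 and 6797 and then 4404, 3480 and 2867. The groups were apart in both states. TGFBI fell by 0.96 ± 0.19 (DESeq2 adjusted p = 4.96e-05) and by 0.99 ± 0.19 (DESeq2 adjusted p = 3.4e-05) on the log2 scale, and remained called without any single library, including the library labelled BRCA2-proficient GSK3i with siβ-catenin replicate 2 (-0.92, adjusted p = 4.61e-05).

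BMP4 measured 74.5, 129.0 and 74.6 with siβ-catenin against 262.1, 261.7 and 134.2 with control siRNA in BRCA2-proficient GSK3i cells, where the 129.0 belongs to the library that went against its label. In BRCA2-deficient cells it measured 103.0, 97.7 and 100.2 against 206.2, 278.5 and 181.5. It fell by 1.21 ± 0.34 (DESeq2 adjusted p = 0.0104) and by 1.15 ± 0.24 (DESeq2 adjusted p = 0.000102) on the log2 scale. The BRCA2-deficient call held without any single library. The BRCA2-proficient one became -1.54 (adjusted p = 4.85e-05) without the doubted library and was lost without GSK3i replicate 1 (-1.07, adjusted p = 0.134), GSK3i replicate 2 (-1.07, adjusted p = 0.199), or siβ-catenin replicate 1 (-1.08, adjusted p = 0.0729) or replicate 3 (-1.07, adjusted p = 0.0606).

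The ID genes gave values above 0. In BRCA2-deficient GSK3i cells ID3 measured 1504, 1337 and 1337 with control siRNA and 2026, 2013 and 2381 with siβ-catenin, a rise of 0.62 ± 0.14 (DESeq2 adjusted p = 0.00105) that fell short of the untreated 4345 to 5852. ID2 rose there by 0.58 ± 0.18 (DESeq2 adjusted p = 0.0205), from 213.1, 274.1 and 234.2 to 344.1, 372.8 and 370.6, and ID1 gave 0.49 ± 0.17 (DESeq2 adjusted p = 0.0461), just under the size the call rule asks for. The ID2 call was lost without any 1 of the 6 libraries (0.51 to 0.69), and that of ID3 without GSK3i replicate 2 (0.59, adjusted p = 0.0707). Neither ID2 nor ID3 was called by edgeR (adjusted p = 0.0941 and 0.0581) or in 1 model over all groups (adjusted p = 0.195 and 0.22). ID1 was called without siβ-catenin replicate 1 (0.62, adjusted p = 0.00217) or with TMM factors (0.51, adjusted p = 0.0348).

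In BRCA2-proficient GSK3i cells the values of ID1 with siβ-catenin were 1311, 4232 and 2134, and the 4232 belongs to the library that went against its label. The rise of ID1 was 1.04 ± 0.33 (DESeq2 adjusted p = 0.0336) with that library and 0.46 (adjusted p = 0.145) without it, and with the replicate number as a block it was 0.87 (adjusted p = 0.335). edgeR did not call it (adjusted p = 0.177). It was also lost without GSK3i replicate 1 (1.08, adjusted p = 0.421), replicate 2 (1.04, adjusted p = 0.198) or replicate 3 (1.01, adjusted p = 0.175) and without siβ-catenin replicate 3 (1.17, adjusted p = 0.285). ID3 rose by 1.0 ± 0.30 (DESeq2 adjusted p = 0.0182) with the doubted library and by 0.53 (adjusted p = 0.0375) without it, and its call was lost without GSK3i replicate 1 (1.04, adjusted p = 0.0743), replicate 2 (1.0, adjusted p = 0.145) or replicate 3 (0.97, adjusted p = 0.131). ID2 gave 0.66 ± 0.25 (DESeq2 adjusted p = 0.095) with the doubted library and 0.41 (adjusted p = 0.3) without it. With siβ-catenin ID2 measured 194.4, 309.9 and 205.7 and ID3 1058, 2775 and 1531, and the doubted library alone, at 309.9 and 2775, reached the untreated ranges of 260.8 to 465.5 and 2305 to 3167. SMAD6 gave 1.14 ± 0.59 (0.42 without the doubted library) in these cells and 0.93 ± 0.50 in their BRCA2-deficient counterparts (DESeq2 adjusted p = 0.278 and 0.311).

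SMAD7 fell with siβ-catenin in BRCA2-deficient GSK3i cells, from 638.1, 615.4 and 777.8 normalised counts to 397.1, 382.9 and 514.4 (-0.65 ± 0.20, DESeq2 adjusted p = 0.0187). In BRCA2-proficient cells it gave -0.51 ± 0.20 (DESeq2 adjusted p = 0.109), or -0.40 (adjusted p = 0.211) without the doubted library. The BRCA2-deficient call was lost by edgeR (adjusted p = 0.104), in 1 model over all groups (adjusted p = 0.135) and without GSK3i replicate 2 (-0.72, adjusted p = 0.0921) or replicate 3 (-0.53, adjusted p = 0.199), or siβ-catenin replicate 1 (-0.59, adjusted p = 0.098) or replicate 2 (-0.58, adjusted p = 0.182). BAMBI gave 0.18 ± 0.34 and 0.26 ± 0.31 in the 2 states, and SKIL 0.04 ± 0.16 and -0.02 ± 0.16. Without the doubted library the BRCA2-proficient values were 0.14 for BAMBI and 0.02 for SKIL. The siβ-catenin effect under GSK3i was not called as different between the BRCA2 states for any of the 9 genes by DESeq2 or edgeR, with 0 of 9 at an unadjusted p under 0.05 by either tool and 0.0057% of all genes called. Without the doubted library it was again called for 0 of 9 by DESeq2, with 0 of 9 at an unadjusted p under 0.05 and 0.0627% of all genes called.

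Without GSK3i, siβ-catenin moved none of the 9 genes past the call rule in either state, by DESeq2 or edgeR. In BRCA2-deficient cells 1 of 9 had an unadjusted p under 0.05 by each tool, beside 2215 of 17324 genes by DESeq2, and 2.03% of all genes were called. That gene was SMAD6 (0.57 ± 0.23), called at 0.76 (DESeq2 adjusted p = 0.0341) without untreated replicate 1. In BRCA2-proficient cells 2 of 9 had an unadjusted p under 0.05 by each tool, beside 2357 of 17654 genes by DESeq2, and 2.97% of all genes were called. There the comparison rests on 2 libraries that lay far apart: ID1 measured 1179 and 2767, ID2 99.2 and 228, ID3 869.4 and 2386 and SMAD6 7.71 and 59.96, the lower value in each case in the library labelled replicate 2 that scored as GSK3i-treated. With replicate 2 alone, which leaves out replicate 3, these genes stood at -1.87, -1.88, -1.66 and -3.62. Only these sizes are given for that lone library, not whether any of these genes was called. With replicate 3 alone none was, at -0.63, -0.67, -0.20 and -0.65, with 0 of 9 genes at an unadjusted p under 0.05 and 2.45% of all genes called. A lone library is assumed here to vary like the group it is compared with.

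The third question was whether GSK3i still acted once β-catenin was depleted. Depletion was partial in BRCA2-deficient siβ-catenin cells, where CTNNB1 measured 2217, 1874 and 1140 without GSK3i and 1821, 1645 and 976.8 with it. AXIN2 was still higher with GSK3i, at 227.1, 192.5 and 117.5 against 94.96, 96.91 and 80.81. Whether the remaining β-catenin had a part in the responses below was not tested. In these cells GSK3i acted on 5 of the 9 genes, all lower, beside 20.1% of all genes called and 11.5% called lower. ID1 measured 4670, 5793 and 6129 without and 1902, 2573 and 2455 with GSK3i (-1.26 ± 0.17, DESeq2 adjusted p = 2.3e-11). ID3 measured 4972, 5707 and 6163 without and 2026, 2013 and 2381 with it (-1.39 ± 0.15, DESeq2 adjusted p = 2.09e-17). SMAD6 measured 260.5, 209.8 and 290.3 without and 47.0, 22.2 and 66.3 with it (-2.47 ± 0.31, DESeq2 adjusted p = 2.71e-13). These 3 genes were apart in the 2 groups and were called under all 12 alternatives. ID2 fell by 0.87 ± 0.20 on the log2 scale (DESeq2 adjusted p = 0.000186), from 579.0, 851.1 and 558.6 to 344.1, 372.8 and 370.6.

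TGFBI, which did not pass the call rule for GSK3i in BRCA2-deficient cells with control siRNA, fell by 0.56 ± 0.19 with siβ-catenin (DESeq2 adjusted p = 0.0198), from 5815, 4399 and 5722 to 4404, 3480 and 2867, with groups that overlapped. This call was lost without GSK3i replicate 2 (-0.53, adjusted p = 0.0747) or replicate 3 (-0.42, adjusted p = 0.118), or siβ-catenin replicate 1 (-0.50, adjusted p = 0.129) or replicate 3 (-0.51, adjusted p = 0.0717). BMP4 gave -0.50 ± 0.22 (DESeq2 adjusted p = 0.0904) and SMAD7 -0.56 ± 0.25 (DESeq2 adjusted p = 0.0819). With the replicate number as a block SMAD7 was called at -0.52 (adjusted p = 0.00391), and without GSK3i replicate 3 at -0.70 (adjusted p = 0.0465).

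The difference between the GSK3i response with siβ-catenin and with control siRNA was then tested. In BRCA2-deficient cells, where 0.486% of all genes were called, BMP4 passed the rule at -1.25 ± 0.30 (DESeq2 adjusted p = 0.00828): its level went up with GSK3i under control siRNA in 3 of 3 replicates and down under siβ-catenin in 3 of 3. edgeR did not call it (adjusted p = 0.204), nor did 1 model over all groups (adjusted p = 0.184). The call was lost without GSK3i replicate 2 (-1.05, adjusted p = 0.0872), GSK3i with siβ-catenin replicate 2 (-1.23, adjusted p = 0.0605) or replicate 3 (-1.25, adjusted p = 0.0569), siβ-catenin replicate 1 (-1.17, adjusted p = 0.114) or untreated replicate 2 (-1.21, adjusted p = 0.0768). With the replicate number as a block 3 of the 9 genes were called, beside 335 of 18117 genes. The block added SMAD7 at -0.95 (DESeq2 adjusted p = 0.000531) and TGFBI at -0.73 (DESeq2 adjusted p = 0.00848). The terms of ID1, ID2, ID3 and SMAD6 were 0.60 ± 0.24, 0.53 ± 0.29, 0.51 ± 0.21 and 0.38 ± 0.49, none called.

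In BRCA2-proficient siβ-catenin cells none of the 9 genes was called for GSK3i by DESeq2 or edgeR, 0 of 9 had an unadjusted p under 0.05 by either tool, and 0.0529% of all genes were called. Both libraries that went against their labels enter this comparison. Without them 6.47% of all genes were called, 2 of 9 had an unadjusted p under 0.05 by DESeq2, and SKIL was called, at -0.51 (adjusted p = 0.0334). ID1 was then at -0.68, ID2 at -0.19, ID3 at -0.88 and SMAD6 at -1.51, beside 0.39, 0.54, 0.15 and 0.04 with them. None of these 4 was called, and DESeq2 gave SMAD6 no adjusted p. The interaction of GSK3i and siβ-catenin in BRCA2-proficient cells, where 7.63% of all genes were called, was called for ID2 at 1.81 ± 0.51 (DESeq2 adjusted p = 0.014) with both libraries. With both, 4 of 9 genes had an unadjusted p under 0.05 by each tool, beside 4001 of 17093 genes by DESeq2. edgeR did not call the interaction for ID2 (adjusted p = 0.102). Without both, where 3.47% of all genes were called, it was 1.08 (adjusted p = 0.113) for ID2, and ID1 was called instead at 1.09 (adjusted p = 0.0219). ID2 was also not called without siβ-catenin replicate 2 (1.33, adjusted p = 0.163) or untreated replicate 2 (1.33, adjusted p = 0.173), and moved to 2.53 without siβ-catenin replicate 3.

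The last question was how BRCA2 depletion shifted the 9 genes. In untreated cells 4 of 9 were higher and none lower, beside 6.91% of all genes called and 2.77% called higher. Under GSK3i 3 of 9 were higher, beside 6.81% called and 3.76% called higher. BAMBI was called by DESeq2 in all 4 BRCA2 comparisons, and by edgeR only with siβ-catenin, where 1 library is doubted (edgeR adjusted p = 0.0756 untreated, 0.0547 under GSK3i and 0.0703 with both). It measured 44.1 and 61.9 normalised counts in untreated BRCA2-proficient libraries and 132.1, 93.2 and 131.0 in untreated BRCA2-deficient ones. With GSK3i it measured 51.3, 43.2 and 40.6 against 116.8, 74.3 and 78.7. The highest of all 10 BRCA2-proficient libraries, at 61.9, lay below the lowest of all 12 BRCA2-deficient ones, at 74.3, whatever the siRNA or treatment and whichever library was doubted. Of 18529 genes, 2.35% separated the 2 states in this way, and BAMBI was the only one of the 9 that did.

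BAMBI was higher by 1.13 ± 0.33 (DESeq2 adjusted p = 0.0139) in untreated cells, 0.98 ± 0.30 (DESeq2 adjusted p = 0.0189) under GSK3i, 1.45 ± 0.32 (DESeq2 adjusted p = 6.21e-05) with siβ-catenin and 1.10 ± 0.32 (DESeq2 adjusted p = 0.012) with both, the last being 1.13 (adjusted p = 0.0154) without the doubted library. At these low counts most single calls depended on all libraries being present. In untreated cells the call was lost without any 1 of 4 of the 5 libraries (0.91 to 1.40), the exception being BRCA2-deficient replicate 2, and under GSK3i without any 1 of 5 of the 6 (0.79 to 1.08), the exception being BRCA2-deficient replicate 2. With GSK3i and siβ-catenin it was lost without BRCA2-deficient replicate 1 (0.85, adjusted p = 0.0943) or replicate 2 (1.17, adjusted p = 0.0539) or BRCA2-proficient replicate 3 (1.02, adjusted p = 0.101). With siβ-catenin alone it held without any single library, the doubted one included (1.19, adjusted p = 0.0198).

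ID3 was higher in BRCA2-deficient cells by 0.91 ± 0.21 untreated (DESeq2 adjusted p = 0.000763) and by 0.61 ± 0.13 under GSK3i (DESeq2 adjusted p = 6.64e-05), and the libraries did not overlap in either. The first call was lost without BRCA2-proficient replicate 3 (0.69, adjusted p = 0.292), and the second held without any single library. Neither was called in 1 model over all groups (adjusted p = 0.0548 and 0.211). ID2 was called under GSK3i (0.66 ± 0.20, DESeq2 adjusted p = 0.0205), not in untreated cells (0.79 ± 0.29, DESeq2 adjusted p = 0.06). The former was lost by edgeR (adjusted p = 0.0717), in 1 model over all groups (adjusted p = 0.131) and without any 1 of 5 of the 6 libraries (0.55 to 0.74), all but BRCA2-deficient replicate 1. The latter was called without BRCA2-deficient replicate 1 (0.81, adjusted p = 0.0402) or replicate 3 (0.92, adjusted p = 0.00835). It stood at 1.26 without BRCA2-proficient replicate 2, which left a lone library in that group. ID1 gave 0.47 ± 0.24 and 0.37 ± 0.12, called in untreated cells without BRCA2-deficient replicate 3 (0.58, adjusted p = 0.0336).

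TGFBI was higher in untreated BRCA2-deficient cells by 1.01 ± 0.25 (DESeq2 adjusted p = 0.00178), with no overlap. This call was lost by edgeR (adjusted p = 0.0672) and without BRCA2-proficient replicate 2 (0.72, adjusted p = 0.347). Under GSK3i it gave 0.45 ± 0.19 (DESeq2 adjusted p = 0.131) and was called without BRCA2-proficient replicate 1 (0.65, adjusted p = 0.00248). SMAD6 was higher by 0.84 ± 0.29 in untreated cells (DESeq2 adjusted p = 0.0424), a call lost by edgeR (adjusted p = 0.11), in 1 model over all groups (adjusted p = 0.345) and without any 1 of 4 of the 5 libraries (0.66 to 0.93), all but BRCA2-deficient replicate 3. BMP4 and SMAD7 gave 0.04 ± 0.27 and 0.29 ± 0.33 untreated. SKIL gave -0.34 ± 0.29, and was called lower without BRCA2-deficient replicate 3 (-0.66, adjusted p = 0.0152).

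With siβ-catenin, 7 of 9 genes were called between the BRCA2 states, 6 higher and SKIL lower, beside 27.4% of all genes called and 13.6% called higher. This comparison rests on the BRCA2-proficient siβ-catenin group, of which 1 of 2 libraries went against its label. Without that library ID1 was higher by 0.97, ID2 by 1.51, ID3 by 1.21, SMAD6 by 2.05, BAMBI by 1.19 and TGFBI by 1.03, and SKIL was lower at -0.79, all still called where 19.2% of all genes were, beside 1.47, 1.99, 1.76, 2.88, 1.45, 1.20 and -0.61 with it. With that library as the only one of its group, after leaving out replicate 3, the values were 2.21 for ID1, 2.72 for ID2, 2.67 for ID3 and 5.02 for SMAD6, BMP4 was called at 1.11 (adjusted p = 0.0212), and SKIL was not called (-0.40, adjusted p = 0.155). Other single libraries also decided calls: SMAD6 was lost without BRCA2-deficient replicate 1, 2 or 3 (2.77 to 3.00, adjusted p = 0.0888, 0.0539 and 0.079), ID3 without BRCA2-deficient replicate 3 (1.69, adjusted p = 0.0508), and SKIL without BRCA2-deficient replicate 1 (-0.58, adjusted p = 0.0924) or replicate 2 (-0.56, adjusted p = 0.0631). SMAD7 was called without BRCA2-deficient replicate 1 (0.87, adjusted p = 0.034) or replicate 2 (0.86, adjusted p = 0.0294).

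With both GSK3i and siβ-catenin only BAMBI was called, 1 of 9 beside 7.74% of all genes. Without the library labelled BRCA2-proficient replicate 2, ID2 (0.85, adjusted p = 0.000469) and ID3 (0.72, adjusted p = 0.00549) were called as well, beside 9.35% of all genes.

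**Figure D4:**
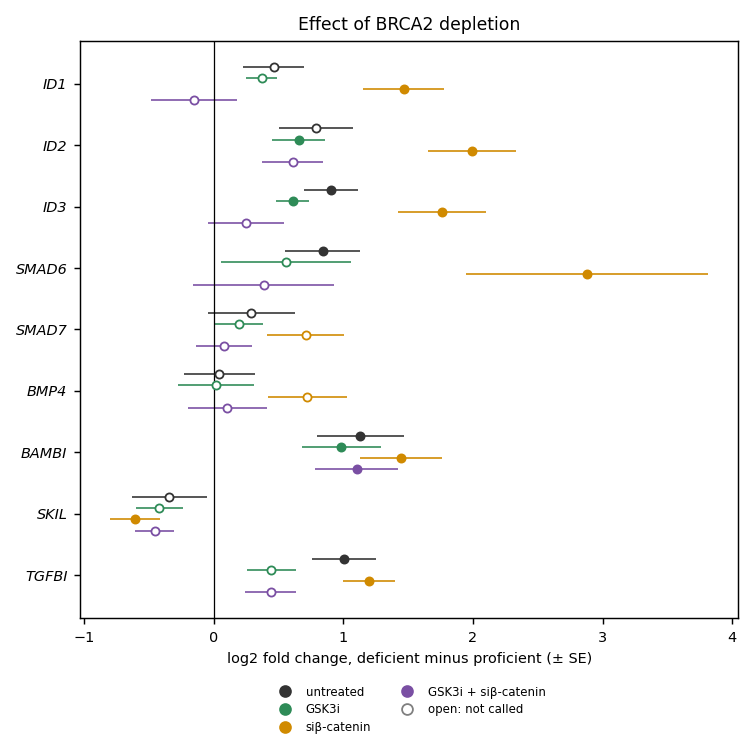
Log2 fold change ± SE of the 9 genes between BRCA2-deficient and BRCA2-proficient cells, in each of the 4 conditions. Filled points passed the call rule by DESeq2, and BAMBI is filled in all 4, between 0.98 and 1.45.

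The other genes of the pathway were taken from 6 lists with 77 genes in all. With GSK3i under control siRNA, 68 were tested in each state, with 5 higher and 20 lower when BRCA2 was present, and 5 higher and 18 lower when it was depleted, where 26.1% and 25.4% of all genes were called and 14.2% and 13.8% were called lower. Their median log2 fold change was -0.16 and -0.11, beside -0.002 and 0.024 over all genes. Of 67 tested in both states, 15 were lower and 5 higher in both. The share of all genes called alike in both states was not computed.

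ATOH8, a BMP-responsive basic helix-loop-helix factor, was lower with GSK3i at -2.46 ± 0.25 on the log2 scale in BRCA2-proficient cells and -2.28 ± 0.20 in BRCA2-deficient cells, the order kept in what follows. ID4, the remaining ID gene, stood at -1.02 ± 0.27 and -0.95 ± 0.24. Among the SMADs, 2 of 6 fell in each state, SMAD3 with -1.31 ± 0.14 and -1.30 ± 0.22 and the BMP-branch SMAD9 with -1.20 ± 0.26 and -1.58 ± 0.30. Of the receptors, ACVR2B, an activin type II receptor, fell (-1.68 ± 0.19 and -1.69 ± 0.21), while BMPR1B, a BMP type I receptor, rose (0.94 ± 0.19 and 0.82 ± 0.20). TGFB3, a ligand, fell (-1.02 ± 0.22 and -1.39 ± 0.17), as did TGIF1, a SMAD co-repressor (-1.40 ± 0.18 and -1.54 ± 0.17).

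The other TGF-β targets split, with 3 of 15 higher and 5 of 15 lower in each state, beside the same 26.1% and 25.4% of all genes called. PMEPA1, which encodes an inhibitor of TGF-β signalling, rose (1.81 ± 0.20 and 1.26 ± 0.26), as did TSC22D1, a TGF-β-induced leucine zipper gene (1.11 ± 0.13 and 0.82 ± 0.13). JUNB, an AP-1 subunit, fell (-1.66 ± 0.22 and -1.25 ± 0.24). THBS1, a secreted activator of latent TGF-β, fell as well (-1.37 ± 0.15 and -1.71 ± 0.21), and so did TGM2, a transglutaminase (-1.03 ± 0.16 and -1.20 ± 0.24). HEY1, a BMP and Notch target, rose (0.87 ± 0.19 and 1.10 ± 0.26).

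**Figure D5:**
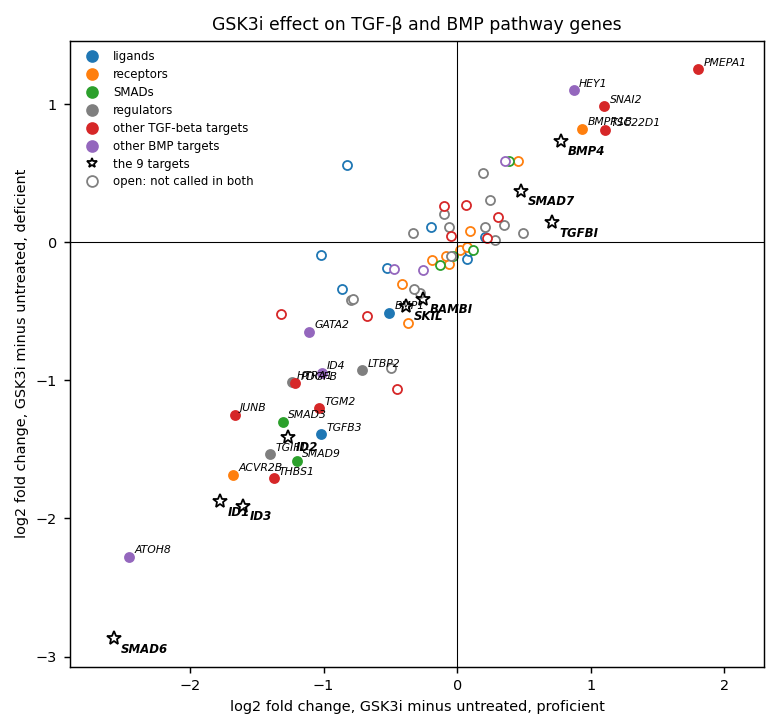
GSK3i effect (log2 fold change) in BRCA2-proficient (horizontal) and BRCA2-deficient (vertical) cells with control siRNA, for the 67 other pathway genes tested in both states, coloured by list, and for the 9 targets (stars). Filled points were called in both states, 15 of them lower and 5 higher, and SMAD6 lies farthest toward the lower left.

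Under GSK3i, siβ-catenin moved 7 other pathway genes up and 6 down in BRCA2-deficient cells (68 tested; 5.52% of all genes called). In BRCA2-proficient cells (69 tested) it moved 7 up and 5 down with the library that went against its label, and 4 up and 8 down without it, beside 5.1% and 4.76% of all genes. PMEPA1 fell in BRCA2-deficient cells (-1.04 ± 0.23) and in BRCA2-proficient cells (-1.48 ± 0.26 with and -1.22 ± 0.18 without that library). TSC22D1 stood at -1.27 ± 0.14 in BRCA2-deficient cells, and at -1.34 ± 0.13 with and -1.30 ± 0.12 without that library in BRCA2-proficient cells. SMAD2 stood at -0.65 ± 0.19, and at -0.55 ± 0.14 and -0.64 ± 0.12. COL1A1, a fibrillar collagen chain, rose by 1.79 ± 0.24, and by 2.12 ± 0.28 and 2.08 ± 0.30. GATA2, a zinc-finger factor, rose by 0.82 ± 0.25, and by 0.99 ± 0.23 and 0.86 ± 0.22. ATOH8 rose by 0.81 ± 0.24 in BRCA2-deficient cells and by 1.67 ± 0.45 in BRCA2-proficient cells with the doubted library, but was not called without it (0.88 ± 0.32, DESeq2 adjusted p = 0.0763).

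Between BRCA2 states, 6 other pathway genes were higher and 5 lower in untreated cells, and 10 higher and 6 lower under GSK3i. Of these genes 68 were tested in each, and 6.91% and 6.81% of all genes were called, 2.77% and 3.76% higher. TGFBR2, the TGF-β type II receptor, was higher by 0.80 ± 0.23 untreated and 0.73 ± 0.15 under GSK3i, and ENG, a TGF-β co-receptor, by 1.12 ± 0.22 and 0.91 ± 0.21. ATOH8 was higher by 1.04 ± 0.21 and 1.23 ± 0.26, and CDKN2B, a CDK inhibitor induced by TGF-β, by 0.53 ± 0.17 and 0.63 ± 0.17. The ligand BMP6 was lower, at -1.31 ± 0.26 and -1.47 ± 0.23. HEY1, like ATOH8 on the list of other BMP targets, was also lower, at -1.27 ± 0.31 and -1.03 ± 0.16.

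Across the means of the 8 groups, ID1, ID2 and ID3 followed one another, with Pearson's r of log2 level of 0.97 for ID1 with ID3, 0.95 for ID2 with ID3 and 0.91 for ID1 with ID2. TGFBI, SMAD7 and BMP4 formed the other set of like patterns, at 0.91 for SMAD7 with TGFBI, 0.88 for SMAD7 with BMP4 and 0.83 for BMP4 with TGFBI. Without the 2 doubted libraries these 6 values were 0.98, 0.95, 0.92, 0.89, 0.79 and 0.79. Among 11898 genes the pattern most like that of ID1 was DGKA (0.999), that of ID2 LDB1 (0.995), that of ID3 SCAMP5 (0.997), that of SMAD7 RTL8B (0.965), that of BMP4 SH3BP4 (0.973), that of SKIL SUCLG2 (0.987) and that of TGFBI PMVK (0.985). Without the doubted libraries r with these genes was 0.998, 0.994, 0.99, 0.946, 0.962, 0.88 and 0.939. These are descriptions over 8 points that share libraries. SMAD6 and BAMBI averaged under 100 normalised counts and were not searched.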

How the data were processed

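Poly(A) RNA of 22 H1299 libraries was sequenced from strand-specific libraries. Per the submitters' processing notes, the authors aligned reads with HISAT2 2.0.4 to GRCh37/hg19, handled alignments with SAMtools 1.4, removed duplicates with Picard 1.9.2 and counted unique reads per Ensembl gene with featureCounts 1.5.0. The study's reporting summary lists other versions of HISAT2, Picard and featureCounts. The strand setting and annotation release are not given in the sources used here. The deposited values are raw counts, 18938266 to 29280122 per library. BMP4, BAMBI and SMAD6 had the lowest mean counts of the 9 genes.

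Groups came from the labels, and the study describes its replicates as independent experiments. Each comparison was fitted on its own groups with DESeq2 1.42.0 (Wald test, median-of-ratios size factors, Benjamini-Hochberg over all genes tested, R 4.3.3). Genes with fewer than 10 counts in more than 3 libraries were left out, and for interactions a gene needed 10 counts or more in 3 libraries or more. A gene was called at an adjusted p under 0.05 and a log2 fold change over 0.5 in size. The 12 pairwise and 4 interaction comparisons were repeated with edgeR 4.0.16 (quasi-likelihood, TMM), TMM factors, no filter, 1 model over all groups, the replicate number as a block, a test against a log2 fold change of 0.5, and each library left out. Omitting both doubted libraries was chosen after seeing the data. Leaving out 1 library of the BRCA2-proficient untreated or siβ-catenin group left a lone library there. Calls gained or lost in such fits rest on that 1 library, which is assumed to vary like the group it is compared with. Scripts were tested on simulated data.

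In the 7 comparisons with 3 same-numbered pairs, same-numbered libraries deviated together from their group means (correlation 0.14 to 0.87 over genes averaging at least 100 normalised counts). The numbers were therefore taken to pair the samples there. The main fits held no replicate term, so their SE, adjusted p and calls are unpaired. Pairing entered only through the replicate number as a block, which was run as an alternative. No pair of replicates agreed within sampling noise. Other pathway genes were named when they averaged at least 100 normalised counts and were called in the same direction in both BRCA2 states, for GSK3i or for siβ-catenin under GSK3i, or in both BRCA2 comparisons with control siRNA, and the text describes a selection of them. The genes most like a member have the highest Pearson's r over the 8 group means. The members and lists were chosen with earlier results of these data known. Symbols were matched for 36479 of 37908 identifiers. Gene positions are GENCODE v44 lifted to GRCh37. Promoters are from RefSeq (GRCh38.p14). CD3E, PECAM1 and SCGB1A1 were not analysed here. 1 pathway gene is counted in its list but not reported here by name.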

Additional observations from a re-analysis of the deposited data

Results flagged for a closer look

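The response to GSK3i differed between siβ-catenin and control siRNA for 2 of the 9 genes by the interaction term. In BRCA2-deficient cells the BMP4 term was -1.25 ± 0.30 on the log2 scale (DESeq2 adjusted p = 0.00828): BMP4 averaged 133.3 normalised counts untreated and 222.1 with GSK3i under control siRNA, and 142.2 and 100.3 under siβ-catenin. In BRCA2-proficient cells the ID2 term was 1.81 ± 0.51 (DESeq2 adjusted p = 0.014): ID2 averaged 363.2 untreated and 152.4 with GSK3i under control siRNA, and 163.5 and 236.6 under siβ-catenin. The ID2 term rests on both libraries that went against their GSK3i labels, and was 1.08 without them, where 1 group held a lone library. edgeR called neither the ID2 term (adjusted p = 0.102) nor the BMP4 term (adjusted p = 0.204). The BMP4 term was also not called in 1 model over all groups (DESeq2 adjusted p = 0.184), and was lost without any 1 of 5 of the 12 libraries.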

How the results depend on the processing

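Over the alternatives other than leaving out libraries one at a time, 812 values of single genes stayed on their side of the call rule, 57 lost a call and 13 gained one. With libraries left out one at a time, 895 stayed on their side, 75 lost a call and 29 gained one. Values called in neither fit are counted as having stayed, even where they changed sign. Both sets include fits left with a lone library in a group. No called value changed sign. ID1, ID3 and SMAD6 were called lower with GSK3i under every alternative in both BRCA2 states with control siRNA and in BRCA2-deficient siβ-catenin cells. The following are numbers of the 9 genes called, with the change in the number of all genes called in brackets. By edgeR, siβ-catenin under GSK3i gave 1 in place of 4 in the BRCA2-proficient state (836 to 183). It gave 2 in place of 5 in the BRCA2-deficient one (939 to 267). BRCA2 depletion gave 1 in place of 4 untreated (1185 to 326) and 1 in place of 3 under GSK3i (1112 to 645). With GSK3i and siβ-catenin it gave 0 in place of 1 (1319 to 483). The GSK3i by siβ-catenin interaction gave 0 in place of 1 in both states (1305 to 4 without and 88 to 11 with BRCA2 depletion). Tested against a log2 fold change of 0.5, GSK3i in BRCA2-deficient siβ-catenin cells gave 3 in place of 5 (3534 to 463). BRCA2 depletion with siβ-catenin gave 4 in place of 7 (4888 to 912). The same test gave 0 for siβ-catenin under GSK3i in both states (836 to 52 and 939 to 73). BRCA2 depletion gave 0 untreated (1185 to 60), under GSK3i (1112 to 92) and under both (1319 to 78). The interaction of GSK3i and siβ-catenin gave 0 in both states (1305 to 26 and 88 to 6). In 1 model over all groups, siβ-catenin gave 2 under GSK3i in BRCA2-deficient cells (939 to 970) and 1 without GSK3i in BRCA2-proficient cells (524 to 274). BRCA2 depletion gave 2 untreated (1185 to 1103) and 1 under GSK3i (1112 to 1015). The interaction gave 4 without and 0 with BRCA2 depletion (1305 to 2149 and 88 to 52). Without both doubted libraries, an alternative chosen after seeing the data, the BRCA2-proficient siβ-catenin group held a lone library. The cause of these changes in number was not tested, except that the test against a fold change asks for more by construction.

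With libraries left out one at a time, siβ-catenin under GSK3i gave 1 to 3 in BRCA2-proficient cells (291 to 858 of all genes). In BRCA2-deficient cells it gave 2 to 4 (372 to 1038), and without GSK3i 0 to 1 (83 to 530). BRCA2 depletion gave 1 to 2 under GSK3i (613 to 1302) and 0 to 3 with GSK3i and siβ-catenin (748 to 1593). The interaction in BRCA2-deficient cells gave 0 to 1 (47 to 110). Comparisons left with a lone library in a group are not counted here.

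With the replicate number as a block the interaction in BRCA2-deficient cells gave 3 in place of 1, where the number of all genes called went from 88 to 335. In the comparisons with 3 pairs the block changed no call of the 9 genes other than those named beside the results. The comparisons with the BRCA2-proficient untreated or siβ-catenin group share only 2 numbers, and correlations there ran from -0.42 to 0.26. This range overlaps the 0.14 to 0.87 of the comparisons with 3 pairs, so whether the numbers pair those libraries was not settled. The block ended the calls of BMP4 (0.57, adjusted p = 0.297) and TGFBI (0.53, adjusted p = 0.303) for GSK3i in BRCA2-proficient cells, of SMAD6 (0.66, adjusted p = 0.38) and BAMBI (1.07, adjusted p = 0.167) for BRCA2 depletion in untreated cells, and of SKIL (-0.58, adjusted p = 0.152) for BRCA2 depletion with siβ-catenin, and added ID2 (0.83, adjusted p = 0.00639) in untreated cells. BAMBI and SMAD6 averaged 81.5 and 86.0 normalised counts, and depth limits the precision of genes at such counts.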
